A study of Mus musculus with 6 samples.

Results

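The genes described here are 10 components of the Notch pathway: the receptors Notch1, Notch2 and Notch4, the protease Adam10, the nuclear effector Rbpj, its co-activator Maml1, the Deltex genes Dtx1, Dtx3 and Dtx4, and the target gene Hes1. They were chosen by name, and every probe set that the platform annotation pairs with one of these symbols alone was taken, which gave 11 of the 35399 probe sets in the deposited table. RNA was measured on 6 Affymetrix arrays, each from splenic CD4+ dendritic cells (DC) of a different male mouse aged 6 weeks. The 3 wild-type mice (WT, Runx3 +/+) and the 3 mice that lacked the transcription factor Runx3 in the germline (Runx3-/-) came as 3 littermate pairs, and replicate numbers 1 to 3 name the litter. The cells were enriched on magnetic beads and sorted by flow cytometry. Because Runx3 was absent from all cells of these mice and not from DC alone, effects within the DC and effects that reached them through other cells cannot be told apart. The labels mention an Esam population without saying whether Esam entered the gate, so the proportion of Esam-hi cells on each array is not known.

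Notch receptors are activated when a ligand on a neighbouring cell binds them. ADAM10 and then gamma-secretase cleave the receptor, and the released intracellular domain enters the nucleus, binds RBPJ, recruits Mastermind proteins such as MAML1 and switches on targets including Hes1. Deltex proteins are ubiquitin ligases, some of which bind the intracellular domain and influence receptor trafficking. In the spleen, signalling through Notch2 and Rbpj is known to be needed for the CD11b+ Esam-hi subset, to which most CD4+ DC belong.

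Values are log2 RMA values, that is, log2 probe set intensities after normalization, and 6.5 is the level at which the study separated signal from background. Of the 11 probe sets, 10 reached background on at least 1 array, 1 for each gene, and were tested with limma. Dtx3 fell in Runx3-/- CD4+ DC and the other 9 tested genes did not pass an adjusted p of 0.05. Dtx3 was thus 1 of 10 tested genes past the threshold, where 1.56% of all 19149 tested probe sets passed, 0.7% as lower and 0.856% as higher. None of the 10 met the study's own thresholds of 1.5-fold and an unadjusted p of 0.05, which 3.95% of all tested probe sets met, and 4 of 10 had an unadjusted limma p under 0.05 (Dtx3, Rbpj and Notch2 lower, Dtx4 higher) against 15.9% of all tested probe sets, 10.3% as lower and 5.59% as higher. In 5 of 10 genes the WT and Runx3-/- arrays did not overlap (Dtx3, Rbpj and Notch2 lower, Dtx4 and Adam10 higher), against 22.4% of all tested probe sets, 14.9% as lower and 7.48% as higher. The same 5 genes were the ones that differed in 1 direction in all 3 litters, as did 43.5% of all tested probe sets, 27.5% as lower and 16.0% as higher. Dtx4 entered these counts through 1 array alone, Runx3-/- replicate 1, the only array on which it reached background. A negative log2 difference was found for 4 of the 10 genes and for 59.3% of all tested probe sets. The median log2 difference was 0.06 over the 10 genes and -0.04 over all tested probe sets, and the median of its size was 0.19 and 0.12.

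**Figure D1:**
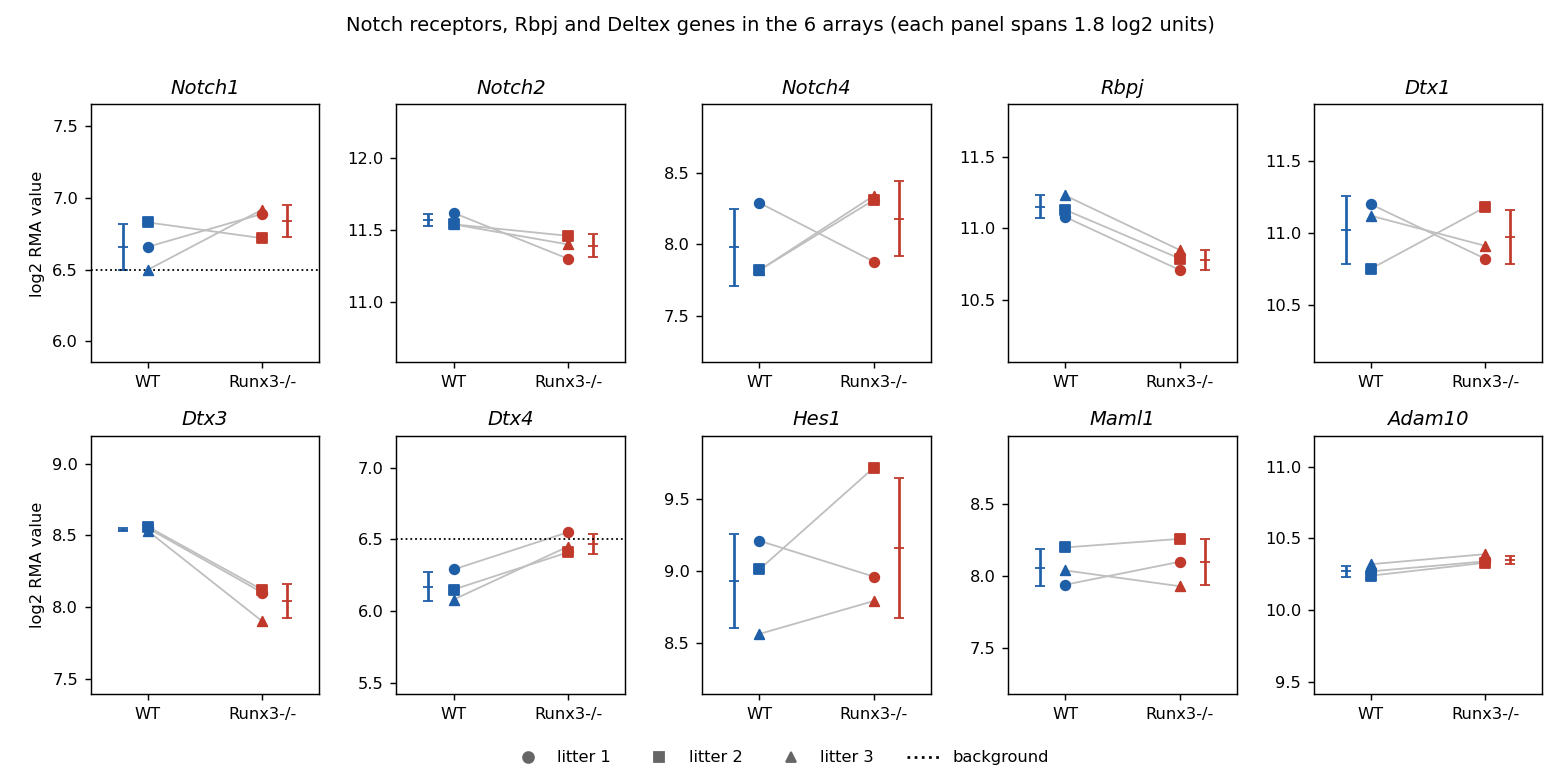
Log2 RMA values of the 10 genes on the 3 WT (blue) and 3 Runx3-/- (red) arrays, with grey lines joining littermates, bars for the mean ± SD of each group and a dotted line at the background of 6.5 where it falls in a panel. The Dtx3, Rbpj and Notch2 values of all Runx3-/- arrays lie under all WT values, whereas Notch1, Notch4, Dtx1, Hes1 and Maml1 overlap.

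Runx3 itself read 11.24, 11.22 and 11.11 on WT arrays 1 to 3 and 9.16, 9.30 and 9.16 on Runx3-/- arrays 1 to 3. The groups lay far apart in the direction the labels give, although the Runx3-/- signal stayed above background. It fell by 1.98 on the log2 scale (SE 0.08), to 25.3% of WT, with an adjusted p of 0.0027 in limma and 0.061 with litter as a block. An exact two-sided permutation test over the arrays gave p = 0.1, the smallest that 3 against 3 allows. The 11 listed CD4+ DC markers were all above background, with array means of 11.78 to 11.86 in WT and 11.70 to 11.79 in Runx3-/-. Irf4 was the 1 of them that passed, as lower, while Zbtb46 (-0.35), Flt3 (-0.28) and Itgam (0.47) had log2 differences that did not pass. The 6 T cell markers with a probe set, among them Cd3d, Cd3e and Cd3g, were below background on every array.

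Several lists for other cells also differed between the groups. The 10 red pulp macrophage markers averaged 8.68 to 9.20 on WT and 9.89 to 10.17 on Runx3-/- arrays, with 5 of the 9 tested rising (Spic, C1qa, C1qb, C1qc and Mertk). Vcam1 and Slc40a1 were higher on all Runx3-/- arrays without passing. Adgre1 (log2 difference 0.01) and Hmox1 (0.22) overlapped, and Cd163 was below background. The 4 monocyte markers averaged 10.43 to 10.79 and 11.33 to 11.50, with Cx3cr1 rising. Ccr2 (log2 difference 1.03), Csf1r (0.53) and Lyz2 (0.50) were also higher on all Runx3-/- arrays, without passing. The 7 CD8+ DC markers averaged 7.86 to 7.88 and 8.17 to 8.65, with Cadm1 and Irf8 rising. The CD8+ DC list did not move as a whole. Batf3 was lower on all Runx3-/- arrays (log2 difference -0.47) and Xcr1 higher (0.68), both without passing, while Clec9a, Cd8a and Tlr3 overlapped. The macrophage, monocyte and CD8+ DC genes named as rising passed with genotype alone and did not pass with litter as a block, where their adjusted p was 0.074 to 0.11 in limma. The 5 plasmacytoid DC markers averaged 7.62 to 7.77 in WT and 7.84 to 9.34 in Runx3-/-, where replicate 3 was highest and the next array read 8.13, and none of the 5 passed. The mean of the 7 B cell markers overlapped between groups, at 7.24 to 7.61 and 7.40 to 7.70, while Cd79b and Fcer2a were higher and Cr2 lower on all Runx3-/- arrays without passing, with Pax5 and Ebf1 below background. The 8 endothelial markers averaged 6.39 to 6.48 and 6.62 to 6.72, with Tek, Tie1, Emcn and Egfl7 below background. Cdh5 passed as higher with genotype alone, but all its WT values were under 6.5, so only Runx3-/- arrays brought it into the test. Platelet and erythroid markers averaged under 6.5 on every array. The study reported Irf8 and Spic as higher in CD4+ DC without Runx3. By quantitative PCR it also found Cx3cr1 and Irf8 higher in sorted Esam-hi DC lacking Runx3. It read such changes as a shift of the DC themselves toward the profile of DC low in Esam. In RNA from sorted populations, a different number of cells of a type and a different amount of RNA per cell cannot be told apart. Whether other cell types were present, and their part in the differences of the Notch genes, was not tested.

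**Figure D2:**
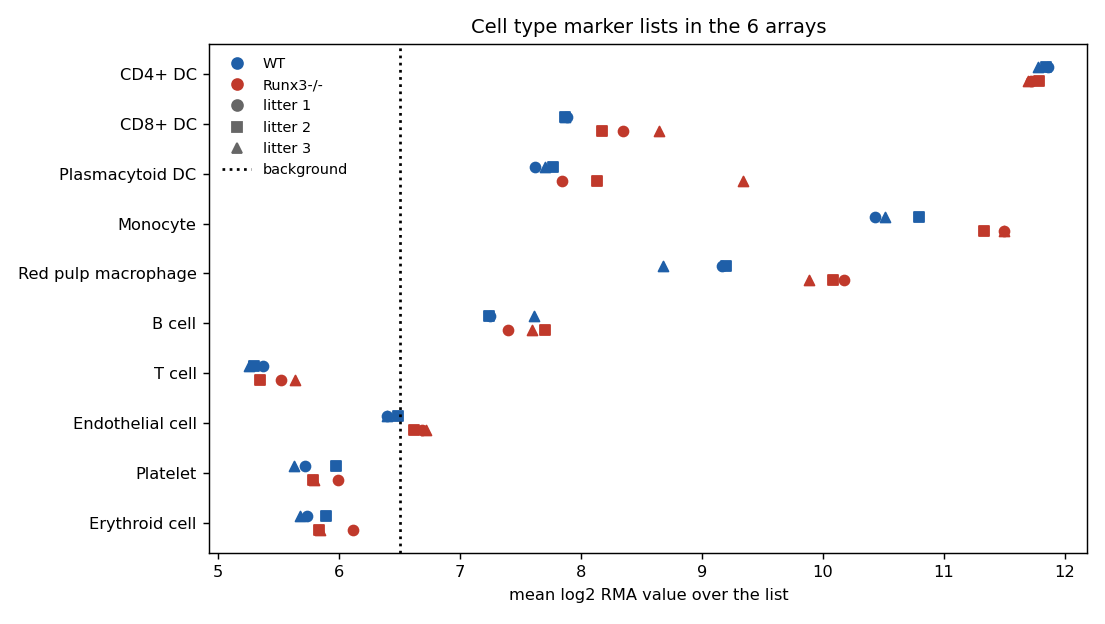
Mean log2 RMA value of each cell type marker list in every array (blue for WT, red for Runx3-/-), with the litter given by the symbol and the background of 6.5 dotted. Means of the macrophage, monocyte, CD8+ DC, plasmacytoid DC and endothelial lists are higher on all Runx3-/- arrays, though not every gene of a list is. Plasmacytoid DC markers reach 9.34 on the Runx3-/- array of litter 3, and T cell markers stay at or under 5.63.

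Among the receptors, Notch2 was the one with groups that did not overlap. Its probe set read 11.62, 11.54 and 11.54 on WT arrays 1 to 3 and 11.30, 11.46 and 11.40 on Runx3-/- arrays 1 to 3. Every Runx3-/- array was under every WT array, and the gap was widest in litter 1 (-0.32 against -0.08 and -0.14). The means were 11.57 ± 0.04 and 11.39 ± 0.08 (SD, n = 3 each), a log2 difference of -0.18 (SE 0.07, 95% interval -0.36 to -0.0043), which is 88.2% of WT. With an adjusted p of 0.31 in limma, and 0.15 to 0.66 over 16 other settings, the Notch2 difference did not pass, and the interval reaches no further down than -0.36. Notch2, the receptor that Esam-hi DC depend on, was well above background on all 6 arrays.

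Notch1, the receptor that directs T cell commitment in the thymus, lay close to background. It read 6.66, 6.83 and 6.5 in WT and 6.89, 6.72 and 6.92 in Runx3-/-. The groups overlapped, and litter 2 differed in the opposite direction to litters 1 and 3. The log2 difference was 0.18 (SE 0.11, 95% interval -0.08 to 0.44, adjusted p = 0.48 in limma).

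Notch4, a receptor best known from vascular endothelium, read 8.29, 7.82 and 7.82 in WT and 7.88, 8.31 and 8.34 in Runx3-/-. Litters 2 and 3 were higher in Runx3-/- by 0.48 and 0.53, whereas litter 1 differed by -0.41, so that WT replicate 1 sat with the upper Runx3-/- arrays. The log2 difference of 0.20 (SE 0.18, 95% interval -0.24 to 0.64) did not pass, with an adjusted p of 0.65 in limma, and its sign turned to -0.0043 with array quality weights. The endothelial cadherin Cdh5 was 6.34, 6.24 and 6.37 in WT, all below background, and 6.80, 6.86 and 6.99 in Runx3-/-. Its adjusted p in limma was 0.036 with genotype alone, 0.094 with litter as a block and 0.07 with an intensity trend. Within litters 1 to 3, Kdr differed by 1.86, 0.34 and 2.0 and Pecam1 was lower in Runx3-/- in each, with neither passing, and the part of endothelial RNA in the Notch4 values was not tested. The fourth mammalian receptor, Notch3, was below background on all arrays (5.63 to 5.78). A further 6 probe sets pair Notch4 with another gene, Sympk, and were left out.

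Adam10, the metalloprotease that makes the ligand-dependent cut, varied little. It read 10.27, 10.24 and 10.32 in WT and 10.34, 10.33 and 10.39 in Runx3-/-. All Runx3-/- values were above all WT values, by 0.07 to 0.10 within litters. The log2 difference was 0.08 (SE 0.06, 95% interval -0.08 to 0.24, adjusted p = 0.61 in limma), so non-overlapping groups went with a small difference that did not pass.

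Rbpj, the DNA-binding protein on which canonical Notch signals converge, read 11.08, 11.13 and 11.23 on WT arrays 1 to 3. On Runx3-/- arrays 1 to 3 it read 10.71, 10.79 and 10.85. The groups were separated by more than the spread within either, and within litters the Runx3-/- value differed by -0.37, -0.33 and -0.38, the most even gap of the 3 lower genes. The means of 11.15 ± 0.08 and 10.78 ± 0.07 (SD, n = 3 each) gave a log2 difference of -0.36 (SE 0.08, 95% interval -0.55 to -0.18), or 77.8% of WT. The adjusted p was 0.092 in limma and so did not pass. With litter as a random term it was 0.045 and passed, and the other 15 settings gave 0.054 to 0.27, with log2 differences of -0.40 to -0.32 over all 16. A second Rbpj probe set was below background on every array (4.93 to 5.08) and was not tested.

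The promoter sequences of Rbpj and Notch2 are printed because these are the genes with lower, non-overlapping values for which a window was at hand. Each holds the 250 bases before the annotated start, 5′ to 3′ on the gene's strand, from RefSeq in build GRCm38.p6. Capitals mark the RBPJ-type motif TGGGAA or its reverse complement TTCCCA. The Rbpj window lies at chr5:53590096-53590345 and the Notch2 window at chr3:98013288-98013537, both on the plus strand.
Rbpj: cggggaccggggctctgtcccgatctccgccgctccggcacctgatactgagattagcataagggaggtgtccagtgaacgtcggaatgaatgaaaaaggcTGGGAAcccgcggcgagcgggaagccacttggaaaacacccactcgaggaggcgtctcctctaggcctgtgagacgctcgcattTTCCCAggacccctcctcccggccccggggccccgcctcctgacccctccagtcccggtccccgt
Notch2: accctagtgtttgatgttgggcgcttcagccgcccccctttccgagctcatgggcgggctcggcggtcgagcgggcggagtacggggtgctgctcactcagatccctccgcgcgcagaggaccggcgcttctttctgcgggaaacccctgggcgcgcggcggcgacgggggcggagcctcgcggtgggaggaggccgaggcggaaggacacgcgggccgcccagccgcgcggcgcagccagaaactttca

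The Rbpj window holds the RBPJ-type motif 149 bases upstream of the start on the plus strand and 65 bases upstream on the minus strand. The Notch2 window holds none. Windows were found for 7 of the 10 genes, 8 windows in all since Rbpj has a second annotated start whose window overlaps the first, and none for Dtx3, Dtx4 and Hes1. The motif lay in 2 of the 8 windows, both of Rbpj and sharing the match nearer to the printed start. Among 32851 windows of the same length in 27025 genes, 21.6% held the motif at least once and 2.77% held it 2 or more times. The RUNX-type motif TGTGGT, or ACCACA on the other strand, lay in 0 of the 8 windows and in 14.0% of all windows. These are matches of letters in short windows, and with no RUNX-type match in these windows no overlap between the motifs arose. Such matches do not show where Runx3 binds. By chromatin immunoprecipitation in CD4+ DC, the study reported Runx3 at the Rbpj locus, and it named Rbpj among its Runx3-responsive genes. Here Rbpj was 1.29-fold lower in Runx3-/-, short of the study's 1.5-fold threshold.

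Maml1, which bridges the RBPJ complex to histone acetyltransferases, read 7.94, 8.20 and 8.04 in WT and 8.10, 8.26 and 7.93 in Runx3-/-. The groups overlapped fully. The log2 difference was 0.04 (SE 0.11, 95% interval -0.24 to 0.31, adjusted p = 0.91 in limma).

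The Deltex genes did not behave as a group. Dtx3 fell, Dtx4 was higher near background and Dtx1 showed no shared direction. Dtx3 read 8.55, 8.56 and 8.53 on WT arrays 1 to 3 and 8.10, 8.12 and 7.90 on Runx3-/- arrays 1 to 3. The WT values were almost identical, and every Runx3-/- array was lower, most of all replicate 3. The means were 8.54 ± 0.01 and 8.04 ± 0.12 (SD, n = 3 each). Dtx3 fell by 0.50 on the log2 scale (SE 0.08, 95% interval -0.70 to -0.31), a 1.42-fold decrease to 70.5% of WT.

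The adjusted p of Dtx3 was 0.046 in limma with genotype alone, close to the threshold, and 0.11 with litter as a block, where it did not pass and where 0 of all tested probe sets did (3430 had an unadjusted limma p under 0.05). It passed in 6 of 16 other settings, and it did not pass without any 1 of the 6 arrays, with adjusted p of 0.07 (without Runx3-/- replicate 2) to 0.20 (without WT replicate 1). The size was steadier than the call, at -0.54 to -0.44 over the 16 settings. The end at -0.44 came without Runx3-/- replicate 3, the array with the highest plasmacytoid DC and CD8+ DC marker means. Within litters 1 and 2 Dtx3 differed by -0.45 and -0.44. The part of such cells in the Dtx3 difference was not tested.

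**Figure D3:**
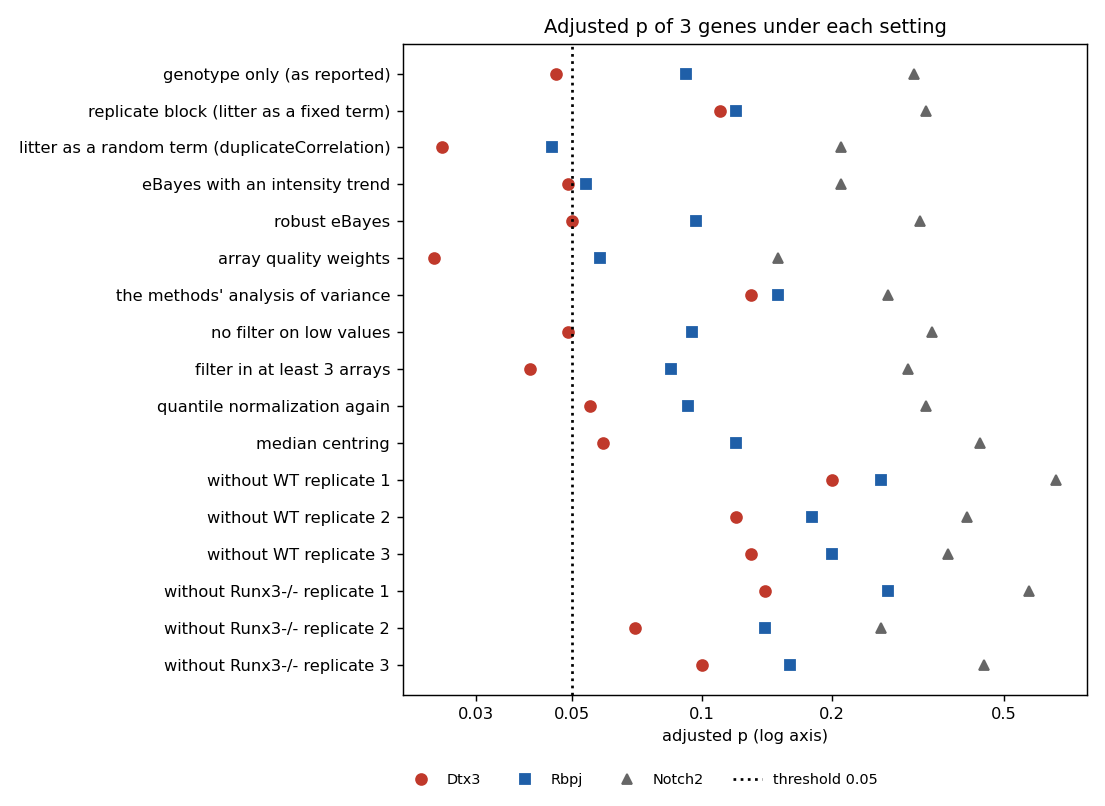
Adjusted p of Dtx3, Rbpj and Notch2 (log axis) with genotype alone and under each of 16 other settings, with the threshold of 0.05 dotted. Dtx3 lies on both sides of the threshold, from 0.024 to 0.20, Rbpj passes with litter as a random term (0.045), and Notch2 lies at or above 0.15 throughout.

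Dtx1, itself a Notch target in lymphocytes, read 11.20, 10.75 and 11.12 in WT and 10.82, 11.18 and 10.91 in Runx3-/-. Litters 1 and 3 differed by -0.38 and -0.21 and litter 2 by 0.43, so the groups overlapped. The log2 difference was -0.05 (SE 0.15, 95% interval -0.42 to 0.32, adjusted p = 0.91 in limma).

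Dtx4 read 6.29, 6.15 and 6.08 in WT and 6.55, 6.41 and 6.45 in Runx3-/-. The Runx3-/- values were higher in each litter, by 0.26 to 0.36, but only Runx3-/- replicate 1 exceeded background. The log2 difference of 0.30 (SE 0.08, 95% interval 0.09 to 0.50) did not pass, with an adjusted p of 0.16 in limma, and no fold is given because 5 of the 6 values are at the level of background.

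Hes1, a basic helix-loop-helix repressor and the most widely used readout of Notch activity, was the most variable of the 10 genes. It read 9.21, 9.01 and 8.56 in WT and 8.96, 9.72 and 8.79 in Runx3-/-. The highest value belonged to Runx3-/- replicate 2 and the lowest to WT replicate 3, and the groups overlapped. The means were 8.93 ± 0.33 and 9.16 ± 0.49 (SD, n = 3 each). The log2 difference of 0.23 (SE 0.28, adjusted p = 0.75 in limma) had a 95% interval of -0.46 to 0.91, so that the sign of the Hes1 difference was not determined. Without Runx3-/- replicate 2 the difference was -0.05.

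**Figure D4:**
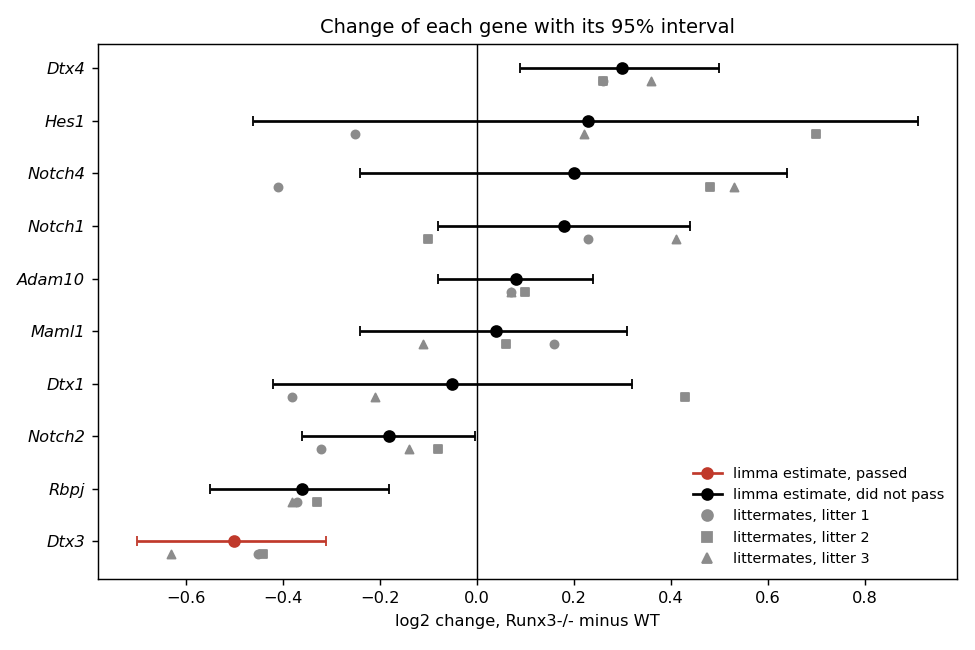
Log2 difference (Runx3-/- minus WT) of each of the 10 genes with its 95% interval from limma, and below it the difference within each litter in grey. Dtx3, in red, passed an adjusted p of 0.05, the Rbpj, Notch2 and Dtx4 intervals also leave out 0, and the Hes1 interval spans -0.46 to 0.91.

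The wider pathway was read from a list of 73 genes grouped by role, which includes the 10 genes. Of these, 69 had a probe set of their own and 53 were tested, while 16 were below background on all arrays. Dtx3 was the 1 gene of the 53 that passed, as lower, and 0 passed as higher, near the 1.56% of all tested probe sets. Of the 53, 15 had an unadjusted limma p under 0.05 (10 lower and 5 higher) against the 15.9% of all tested probe sets. The log2 difference was negative for 35 of the 53 genes and positive for 18, where 59.3% of all tested probe sets were negative, and the median was -0.04, as over all tested probe sets. Groups did not overlap in 19 of the 53 genes, 12 lower and 7 higher, against the 22.4% of all tested probe sets. The higher genes counted here include Dtx4, which reached background on 1 array alone.

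Most ligands and most listed Hey and Hes genes were near or below background in CD4+ DC. Of 7 ligands, 2 were tested. Jag1, named after its values were seen, read 9.21, 9.10 and 9.22 in WT and 8.62, 9.22 and 8.39 in Runx3-/-, with Runx3-/- replicate 2 at the WT level and the other two well under it (log2 difference -0.43, SE 0.21, adjusted p = 0.38 in limma). Dll1, Dll3, Dll4, Jag2 and Dlk1 were below background. Of 7 Hes and Hey genes listed as targets, Hes7, Hey1, Hey2 and Heyl were below background and Hes1, Hes5 and Hes6 were tested. Hes5 overlapped between groups (log2 difference -0.04), as Hes1 did. Hes6, an atypical family member that interacts with Hes1, was 8.01, 8.16 and 8.25 in WT and 7.54, 7.85 and 7.75 in Runx3-/-. All 3 Runx3-/- values of Hes6 lay under the WT values, with a log2 difference of -0.43 (SE 0.11) that did not pass (adjusted p = 0.14 in limma).

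Among the 10 tested Deltex genes and other regulators of the receptor, 7 had a negative and 3 a positive difference. Nedd4, a ubiquitin ligase, read 11.64, 11.62 and 11.69 in WT and 11.06, 11.32 and 11.27 in Runx3-/-. The groups were clearly apart, with a log2 difference of -0.44 (SE 0.09). It did not pass with genotype alone (adjusted p = 0.085 in limma), but did in 3 of the other settings, with a lowest adjusted p of 0.045. Itch, a ligase of the same family, was -0.24 (SE 0.08, adjusted p = 0.23 in limma). Fbxw7, which targets the nuclear Notch domain for degradation, was -0.32 (SE 0.10, adjusted p = 0.19) on the probe set with the higher mean and 0.04 on its other probe set, so its probe sets disagree. Dtx2 stood opposite to Dtx3, at 8.58, 8.59 and 8.54 in WT and 8.82, 8.82 and 8.76 in Runx3-/-. Its littermate differences of 0.23 to 0.24 were even, and its log2 difference of 0.23 (SE 0.06) did not pass (adjusted p = 0.15 in limma).

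The enzymes that prepare and cleave the receptor were above background throughout, with 0 passing. Adam17, a metalloprotease related to Adam10, was 11.54, 11.53 and 11.56 in WT and 11.78, 11.81 and 11.75 in Runx3-/-. Poglut1, which adds glucose to the receptor's extracellular repeats, averaged 9.61 ± 0.05 in WT and 9.89 ± 0.10 in Runx3-/- (SD, n = 3 each). Both genes were higher on every Runx3-/- array, by 0.24 (SE 0.06, adjusted p = 0.14) and 0.28 (SE 0.08, adjusted p = 0.16) in limma, and neither passed. The 8 tested cleavage genes had a median log2 difference of -0.01 and the 6 glycosylation and maturation genes one of -0.13. In the nucleus, the 9 tested effector and co-activator genes had a median of -0.02, with Rbpj at the low end. Tle3, a Groucho-type co-repressor, had the most negative log2 difference of the 9 tested co-repressors. It read 10.43, 10.40 and 10.36 in WT and 10.18, 10.07 and 10.16 in Runx3-/- (log2 difference -0.26, SE 0.07, adjusted p = 0.14 in limma).

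**Figure D5:**
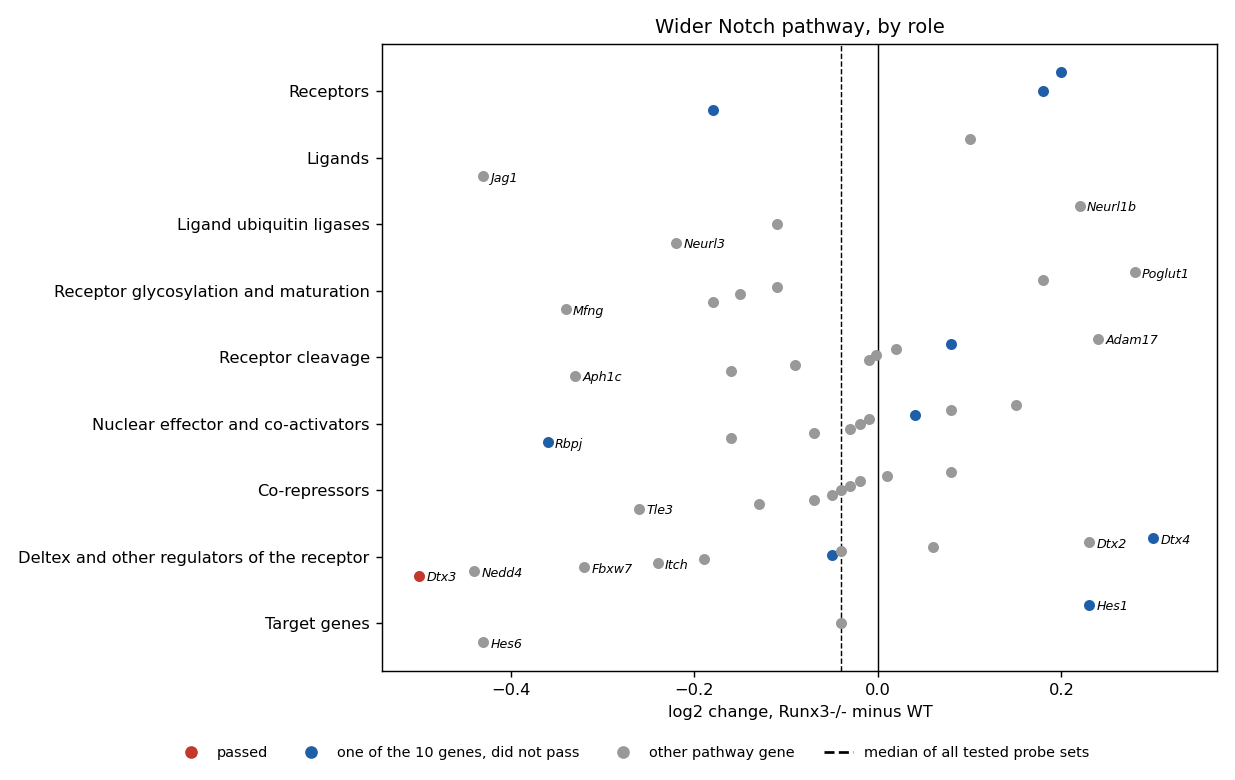
Log2 difference (Runx3-/- minus WT) of the 53 tested Notch pathway genes by role, with Dtx3 in red as the gene that passed, the rest of the 10 genes in blue and other pathway genes in grey. The dashed line is the median of all tested probe sets, -0.04, and 35 of the 53 genes lie under 0, as do 59.3% of all tested probe sets.

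Over the 6 arrays, the named genes whose values ran most closely with Rbpj were Csnk1g3 (Pearson r = 0.9974), Mical1 (0.9955) and Fbxl12 (0.9946), of 9921 genes compared. For Dtx3 they were Aldh3a2 (0.9992), Fes (0.9971) and Gbf1 (0.9953). These r values describe 6 arrays that share 2 genotypes and 3 litters, and such closeness was common, since 125 genes exceeded 0.95 with Rbpj and 217 with Dtx3. None of the 6 passed an adjusted p of 0.05, with log2 differences of -0.50 to -0.14. Runx3 itself had r = 0.937 with Rbpj and 0.971 with Dtx3.

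Genes by which the subset is known were read beside the pathway. Esam, an adhesion molecule and the subset's namesake, was 9.96, 9.75 and 9.78 in WT and 10.03, 10.19 and 9.71 in Runx3-/-. The groups overlapped (log2 difference 0.15, SE 0.14, 95% interval -0.18 to 0.48, adjusted p = 0.66 in limma). Clec4a4, a C-type lectin of this DC subset, averaged 12.05 ± 0.14 in WT and 11.78 ± 0.14 in Runx3-/- (SD, n = 3 each). It was lower on all Runx3-/- arrays without passing (log2 difference -0.27, SE 0.11, adjusted p = 0.30). Cd4 overlapped, with a difference of 0.03 (SE 0.12, adjusted p = 0.92). Kit, a growth factor receptor, fell by 0.79 (SE 0.10, from 11.76 ± 0.14 to 10.96 ± 0.09, SD, n = 3 each), with an adjusted p of 0.026 in limma and 0.074 with litter as a block. Irf4, a transcription factor of CD11b+ DC, fell by 0.62 (SE 0.10, from 10.24 ± 0.02 to 9.62 ± 0.16, SD, n = 3 each), with 0.043 and 0.10. Smad3, a mediator of TGF-beta signalling, was 7.32, 7.97 and 7.36 in WT and 8.62, 8.53 and 8.61 in Runx3-/-, with all Runx3-/- values above all WT values. The means differed 2.05-fold (log2 difference 1.04, SE 0.18). Its adjusted p was 0.056 in limma and so did not pass, and it passed in 5 of 16 other settings.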

How the data were processed

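Gene expression was measured in splenic CD4+ DC of 3 WT and 3 Runx3-/- littermates. Probe sets were summarised by the authors in Partek Genomics Suite from the scanned arrays, using RMA (robust multichip average) and a GC correction, and deposited as log2 intensities. The submitters' processing notes name Partek, RMA and the mm9 build, and no source used here gives versions. RMA forces arrays onto a common distribution (array medians were 6.57 to 6.65), so a shift shared by most genes would not be seen, and differences near background are understated. The probe set identifiers belong to a gene-level Affymetrix array, although an exon array is named in the methods. Which of 2 RNA column kits was used is not settled, since labels and methods differ. The number of arrays limits the precision.

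Probe sets with log2 of at least 6.5 on at least 1 array (19149 of 35399) were fitted with limma 3.58.1 (lmFit and eBayes, R 4.3.3) on genotype alone, since a one-way analysis of variance with no other term is what the methods give. Tests were two-sided, with Benjamini-Hochberg adjustment over all tested probe sets and a threshold of 0.05. "Unadjusted p" is limma's before adjustment, and intervals are 95% intervals. The fit was tested on simulated data with known changes. Descriptions of the samples name the litter, so littermates were read as pairs. The deviations of littermates from their group means correlated at 0.158, 0.102 and 0.246, against -0.23 to 0.103 for arrays of different litters. The main fit leaves the litter out, and blocked values are given where they change a call. Replicate numbers come from the sample titles.

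Platform symbols were used where a probe set carried 1 symbol (21789 probe sets). A pathway gene with several tested probe sets was read from that of highest mean. Levels of different probe sets were not compared. By rule, the text names all 10 genes, pathway genes that passed and the next 8 by p, fixed context genes, passing markers and the 3 genes most correlated with Rbpj and with Dtx3. Other pathway genes and markers, among them Jag1, Zbtb46, Flt3, Itgam, Batf3, Cr2, Kdr and Pecam1, were named outside these rules with their values known. The genes, lists and tests were chosen with earlier results of these data known. Promoter sequences are from RefSeq tables of GRCm38.p6, which differs from mm9, so no probe set coordinates are given. Python 3.11.15 and pandas 2.3.3 were used for the tables. Alternatives tried were litter as a block or a random term, an intensity trend, robust eBayes, array weights, the methods' analysis of variance, other filters, quantile normalization or median centring of the deposited values, leaving out each array, and the mean of a gene's probe sets.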

Additional observations from a re-analysis of the deposited data

How the results depend on the processing

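The number of probe sets past an adjusted p of 0.05 was 298 of 19149 with genotype alone. It was 0 with litter as a replicate block (3430 at an unadjusted limma p under 0.05), 602 with litter as a random term, 375 with an intensity trend, 656 with array quality weights and 6 by the methods' analysis of variance after adjustment. It was 0 to 205 without 1 array, with 0 without WT replicate 1 (1968 at an unadjusted limma p under 0.05) and 1 without Runx3-/- replicate 3. At the study's thresholds it was 757 with limma and 594 with the analysis of variance. Of the 10 Notch genes, 1 passed (Dtx3). It was 2 with litter as a random term (Dtx3 and Rbpj), and 0 with the replicate block, by the analysis of variance, after quantile normalization or median centring, and at the study's thresholds by either test. Without 1 array it was 0 to 0. Of the 53 tested pathway genes, 1 passed (Dtx3), 3 with litter as a random term, 2 with an intensity trend or array quality weights (Dtx3 and Nedd4), and 0 with the replicate block, by the analysis of variance, after quantile normalization or median centring, at the study's thresholds and without any 1 array.

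The sign of the difference held in all settings for 6 of the 10 Notch genes and for 35 of 40 named genes. It turned for Notch4 with array quality weights (-0.0043), for Dtx1 without WT replicate 1 (0.04) and without Runx3-/- replicate 1 (0.02), for Hes1 without Runx3-/- replicate 2 (-0.05), for Maml1 without WT replicate 1 (-0.02) and without Runx3-/- replicate 2 (-0.04), and for Cd4 with array quality weights (-0.03), without WT replicate 3 (-0.08) and without Runx3-/- replicate 2 (-0.02). Without 1 array the differences ranged from -0.19 to 0.04 for Dtx1, from -0.05 to 0.41 for Hes1, from -0.04 to 0.12 for Maml1 and from -0.08 to 0.1 for Cd4. Dtx4 could not be fitted in 2 settings because it is above background on 1 array alone. The causes were not tested. Signal near background limits Notch1 and Dtx4 most.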
